A study of Mus musculus with 4 samples.

Results

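Colonies grown from MPP2 cells were compared with colonies grown from short-term haematopoietic stem cells (ST-HSCs), both kept in ethanol without induction. The comparison took 2 of the 4 libraries of the series and the 10993 autosomal genes, of 14323 listed, whose normalized count averaged at least 1 over the 4 libraries. It asks which blood lineages the progeny of each progenitor expressed before the MLL-ENL leukaemia fusion was switched on.

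Blood stem cells give rise to multipotent progenitors that differ in the lineages they favour. ST-HSCs rebuild all lineages for a limited time. MPP2 cells are a progenitor class known for a lean toward megakaryocytes, which shed platelets, and toward red cells. Mast cells, basophils and eosinophils share GATA transcription factors with both of those lineages, while neutrophils and monocytes depend on PU.1 and C/EBP factors.

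Both groups are labelled C57BL/6. Per the labels, 100 sorted cells were plated in 1 ml of 1% methylcellulose with SCF at 25 ng/ml and IL-6, IL-3 and GM-CSF at 10 ng/ml each, and grown for 5 to 7 days with ethanol, the solvent of 4-hydroxytamoxifen (4OHT). The cells come from the study's mouse model for conditional MLL-ENL expression. The ethanol cultures are marked "control" and the other 2 libraries, from cultures with 4OHT at 0.05 µM, are marked "MLL-ENL". The RNA is that of the colony cells, not of the plated progenitors. The construct of the model, the driver of its switch and the number of mice behind a culture are not stated in the sources at hand. Each group has 1 library, so differences have no replicate check and no p-value. Intervals on ratios are exact 95% binomial intervals on reads and cover counting error only. The ST-HSC ethanol library had 14317891 reads and the MPP2 ethanol library 13705519.

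The cultures differed in the sex of the cells as well as in cell type. Xist, the RNA that silences 1 X chromosome in female cells, had 0 reads in ST-HSC and 12086 in MPP2 cultures with ethanol, and 5 and 7437 with 4OHT. The Y-linked gene Ddx3y had 682 and 621 reads in the ST-HSC libraries and 0 in both MPP2 libraries, and Uty, Kdm5d and Eif2s3y likewise had 0 in both MPP2 libraries. The ST-HSC libraries thus carry male and the MPP2 libraries female markers. Sex, animal of origin and cell type cannot be told apart in any value below, which is why genes on the X and Y chromosomes were left out.

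Past 2-fold, far more genes were higher in MPP2 than in ST-HSC colonies, though at any fold 5032 tested genes were higher and 5960 lower. At least 2-fold higher in MPP2 colonies were 689 genes, 6.27% of those tested, and 93 were at least 2-fold lower, 0.846%. These shares are the reference for each list count below. At 4-fold the counts were 236 and 5. The median log2 difference over all genes was -0.04, with an SD of 0.64 (log2 of the normalized count plus 0.5, as throughout), and 81.9% of genes lay within 1.5-fold. The counting interval of the ratio excluded 1 for all 689 higher and all 93 lower genes, and it lay wholly past 2-fold for 470 and 34. Fewer than 10 normalized counts in the higher library were found for 322 and 46 of them. Of the higher genes, 193 had a mean under 1 in the ST-HSC libraries, so they entered through the MPP2 libraries and had to be higher there on average over the pairs. Just inside the 2-fold line stood Thy1, with 19.1 normalized counts in ST-HSC and 38.7 in MPP2 colonies, and just outside it Card6, with 1.81 and 4.11. On the lower side these were Laptm4b (20.3 and 9.89) and Phgdh (317 and 159).

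**Figure D1:**
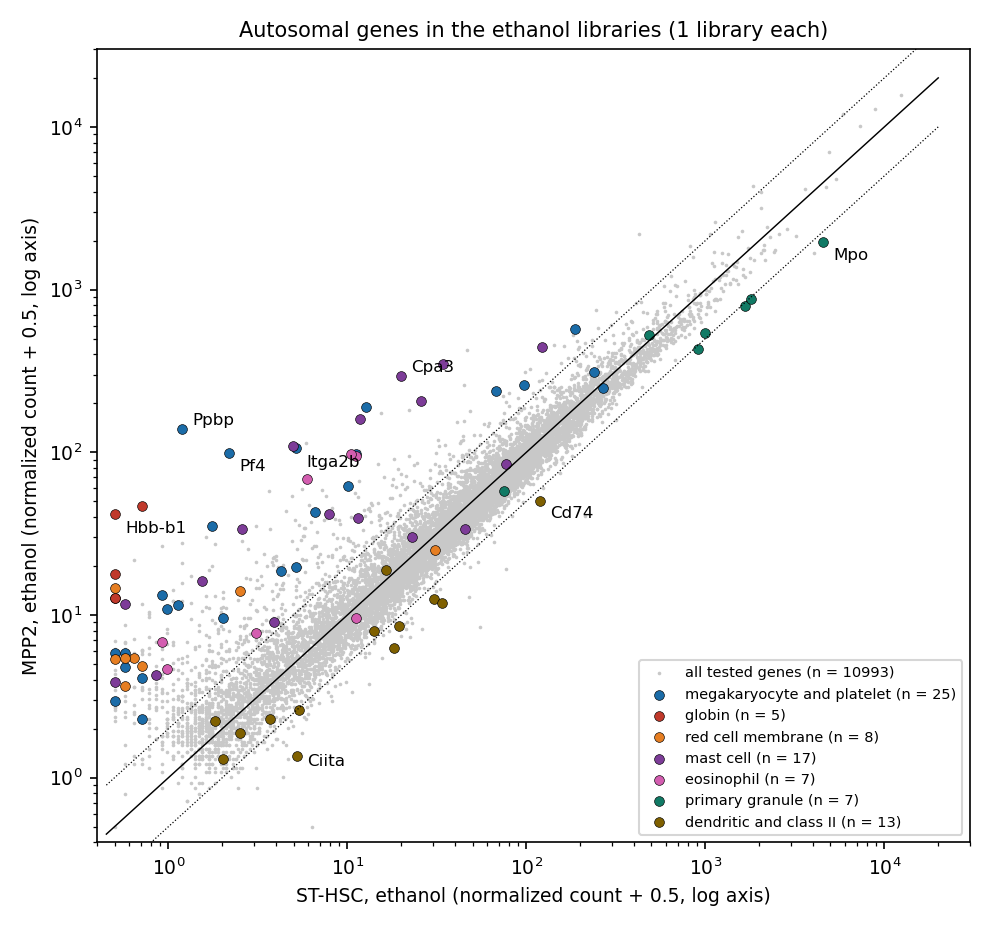
Normalized counts plus 0.5 of each tested gene in the ST-HSC (horizontal) and MPP2 (vertical) ethanol libraries, both on log axes, with members of the lineage lists in colour. The solid line marks equal levels and the dotted lines 2-fold; platelet, red cell, mast cell and eosinophil genes lie far above the line at the left, and the granule gene Mpo and class II genes below it.

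Megakaryocyte and platelet genes were the list with the most members past 2-fold. Like all lists here, it was chosen with earlier results of these data known. Of 25 tested members, 23 were at least 2-fold higher in MPP2 colonies and 0 lower, with a median log2 difference of 2.69. Of these members 11 passed the filter only through the MPP2 libraries, and of the other 14 genes 12 were past 2-fold. Ppbp, a platelet chemokine at chromosome 5, 90768518 to 90770063 (GRCm38), had 0.695 normalized counts in ST-HSC and 138 in MPP2 colonies, a ratio of 198 (counting interval 107 to 414). Its neighbour Pf4, platelet factor 4, at chromosome 5, 90772435 to 90773383, had 1.67 and 98.9 (ratio 59.2, 39.6 to 92.8). Both chemokine genes were low in ST-HSC colonies, with 10 and 24 reads, and far higher in MPP2 colonies. Itga2b, the integrin chain CD41 that marks the lineage from its start, had 4.66 and 105 (ratio 22.6, 17.7 to 29.3). Its partner chain Itgb3 was already present in ST-HSC colonies, at 67.2 against 238.

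The receptor complexes of the platelet surface followed the same order. For the von Willebrand factor receptor, the normalized counts in ST-HSC and MPP2 colonies were 1.53 and 9.02 for Gp1ba, 3.76 and 18.1 for Gp1bb, 0.417 and 12.8 for Gp5, and 0.0695 and 4.26 for Gp9. Vwf itself, the adhesive protein it binds, had 10.7 and 97.8. All 4 subunits and their ligand were higher in MPP2 colonies. However, Gp5 and Gp9, and Gp6 and Tubb1 below, stood under 1 normalized count in the ST-HSC ethanol library. For genes whose mean over the ST-HSC libraries is under 1, the filter sets the direction on average over the pairs. Gp6, the collagen receptor, had 0 reads in ST-HSC and 34 in MPP2 colonies. The thrombin receptor gene F2r had 12.2 and 191 normalized counts, and Rab27b, which handles platelet granules, 1.25 and 34.9. Tubb1, the tubulin of mature platelets, was low on both sides, at 0.209 and 1.80. The members short of 2-fold were Nbeal2 (237 and 311) and Fli1 (266 and 247), a transcription factor expressed across blood cells.

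A further list of platelet signalling and serotonin genes, put together after these values were seen, counted 14 of 26 past 2-fold on the higher side and 0 on the lower. Of these 26 members 10 passed the filter only through the MPP2 libraries, and of the other 16 genes 4 were past 2-fold. Tph1, which makes serotonin outside the brain, had 1.11 and 29.6 normalized counts, and the serotonin transporter gene Slc6a4 2.57 and 34.9. Alox12, the 12-lipoxygenase of platelets, had 1 read in ST-HSC and 153 in MPP2 colonies. The nitric oxide receptor subunits Gucy1a3 and Gucy1b3 had 1 and 0 reads in ST-HSC and 79 and 79 in MPP2 colonies. General signalling parts of the list, such as the integrin activators Tln1 (0.42) and Fermt3 (0.09), were within 2-fold.

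Globin genes, the products of haemoglobin-making red cell precursors, were read almost only in MPP2 colonies. Hbb-b1, a beta globin gene, had 0 reads in ST-HSC and 571 in MPP2 colonies. That is 197-fold higher with the 0 set at 3 reads (the 95% counting interval starts at 160.1). Hba-a1, an alpha globin gene, had 3 and 637 reads, and Hba-a2 had 0 and 239, 82.7-fold higher with the same setting (interval from 66.7). All 5 tested globin genes passed the filter only through the MPP2 libraries, which fixes their direction, and they are not separate measurements. Hba-a1 and Hba-a2 share 75.5% and 92.6% of their 31-base words with other genes, and Hbb-b2 and Hbb-bt carry identical values in all 4 libraries (0 and 170 reads in ethanol). In bulk RNA, fewer cells of a type and less RNA per cell cannot be told apart, here and for each lineage below.

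Red cell membrane genes were few and low. Of 16 listed genes, 8 were under the filter. Of the 8 tested, 6 passed it only through the MPP2 libraries, so that 7 stood past 2-fold is largely set by the filter, and 1 did with a mean of at least 5. Slc4a1, the anion exchanger of the red cell, had 0 reads in ST-HSC colonies and 14.1 normalized counts in MPP2 colonies (at least 67.4-fold higher, interval from 54.3). Sptb, a spectrin gene, had 2.02 and 13.6 normalized counts. Gypc, expressed in many blood cells, was not past 2-fold, at 30.2 and 24.7.

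Among erythroid regulators the picture was divided, with 5 of 13 at least 2-fold higher, 0 lower and a median of 0.17. Of the 11 that averaged at least 1 in the ST-HSC libraries, 3 were past 2-fold. Zfpm1, which encodes the GATA1 partner FOG1, had 3.34 and 19.8 normalized counts, and Klf1, the activator of adult beta globin, 0.348 and 3.10. Gfi1b, needed for both red cells and platelets, had 1.11 and 7.00. Several other members did not reach 2-fold. Tal1 had 48.5 and 52.7, Nfe2 209.6 and 216, and Myb, which keeps progenitors immature, 201 and 131. Gata1 is X-linked and so outside the comparison; it had 2.09 and 21.1.

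Heme and iron genes were mostly near level. At least 2-fold higher were 2 of 20 tested members, against 6.27% of all tested genes, and the list median was -0.04. The pathway enzymes that all cells use, such as Alad (10.1 and 10.1 normalized counts) and Fech (36.2 and 35.5), stood near level. Past 2-fold were Fth1, the ferritin heavy chain that stores iron, at 1132 and 2590.4, and the transferrin receptor Tfr2 at 2.64 and 5.99. The main transferrin receptor gene Tfrc had 708 and 593.

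Mast cell genes were also higher in MPP2 colonies. At least 2-fold higher were 14 of 17 tested members, against 6.27% of all tested genes, with a median log2 difference of 2.96. The members' summed normalized counts were 386 in ST-HSC and 1864 in MPP2 colonies. Of the 13 members that averaged at least 1 in the ST-HSC libraries, 10 were past 2-fold. Cpa3, mast cell carboxypeptidase, at chromosome 3, 20215620 to 20242181, had 19.5 and 293 (ratio 15.1, 13.3 to 17.1). Hdc, which makes histamine, had 33.7 and 347 (ratio 10.3, 9.37 to 11.3). Both were also read well above the detection limit in ST-HSC colonies. Among the granule proteases, Gzmb had 4.45 and 109, the chymase gene Cma1 0.0695 and 11.3, and the tryptase gene Tpsb2 0 and 3.39.

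The receptors and factors of mast cells were higher as well, with exceptions. Il1rl1, the IL-33 receptor, had 11.3 and 160.3 normalized counts, and Gata2, which encodes a GATA factor used by stem cells, mast cells and megakaryocytes, at chromosome 6, 88193891 to 88207032, 25.3 and 206 (ratio 8.12, 7.28 to 9.09). Fcer1a and Ms4a2, the alpha and beta chains of the IgE receptor, had 2.09 and 33.4, and 7.44 and 40.98. Kit, the SCF receptor that mast cells keep and progenitors share, was near level at 76.4 and 84.1. Mitf, a mast cell factor also found in macrophages, had 22.5 and 29.7. The nucleoside transporter gene Slc29a1 was the only tested member below 0, at -0.41.

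In the wider IgE receptor pathway all 13 tested genes were above 0, against 5032 of all 10993 tested genes, and 5 were at least 2-fold higher. Besides the 2 receptor chains these included the adaptors Lat (2.29 and 24.8 normalized counts) and Lat2 (17.5 and 68.5). The gamma chain gene Fcer1g, which other myeloid cells use too, had 207 and 406, and the kinases Lyn (0.20) and Syk (0.28) were within 2-fold. Of the lipid mediator list, 6 of 12 were at least 2-fold higher, 5 of them among the 11 that averaged at least 1 in the ST-HSC libraries. Akr1c18, a steroid-reducing enzyme, had 5.35 and 113, Ptges, a prostaglandin E synthase, 2.57 and 10.2, and Alox5, the first enzyme of leukotriene synthesis, 231 and 490.4. Akr1c12 (2.90) and Akr1c13 (2.05), close relatives of Akr1c18, also stood past 2-fold, though they share 39.2% and 33.7% of their 31-base words with other genes.

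Basophil and eosinophil genes were higher in MPP2 colonies in the same manner. Of 6 basophil genes 5 were at least 2-fold higher, 3 of them among the 4 that averaged at least 1 in the ST-HSC libraries. Mcpt8, the basophil protease, had 45.8 and 428 normalized counts (ratio 9.33, 8.61 to 10.1), Prss34, a basophil and mast cell protease, 14.95 and 174, and Cd200r3, a receptor of both cells, 1.32 and 26.8. The cytokines Il4 and Il13 had 0.348 and 6.35, and 0.695 and 11.7. Of 7 eosinophil genes 6 were past 2-fold, 4 of them among the 5 with such a mean. The granule proteins Epx (10.6 and 94.9), Prg2 (9.94 and 97.7) and Ear6 (5.42 and 68.3) differed alike. Siglecf, a lectin of mature eosinophils, did not, at 10.6 and 9.09, and the chemokine receptor Ccr3 had 1 and 2 reads.

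The bases before the start of 6 of these genes are printed because these genes carry the lineage contrast: the neighbours Ppbp and Pf4, the platelet receptor Gp5, the alpha globin gene Hba-a2, the mast cell gene Cpa3 and, from the lower side, the granule protease Ctsg. They were picked after the values were seen. The sequences are the 250 bases upstream of the RefSeq start on GRCm38.p6, 5′ to 3′ on the gene's strand. Capitals mark GATAA, the core bound by GATA factors, and CACCC, the box bound by KLF1 and related factors, on either strand.
Ppbp: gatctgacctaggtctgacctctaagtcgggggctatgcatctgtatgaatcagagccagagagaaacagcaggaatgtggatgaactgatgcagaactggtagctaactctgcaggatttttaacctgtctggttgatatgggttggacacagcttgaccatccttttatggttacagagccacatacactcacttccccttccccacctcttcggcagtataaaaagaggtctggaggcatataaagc
Pf4: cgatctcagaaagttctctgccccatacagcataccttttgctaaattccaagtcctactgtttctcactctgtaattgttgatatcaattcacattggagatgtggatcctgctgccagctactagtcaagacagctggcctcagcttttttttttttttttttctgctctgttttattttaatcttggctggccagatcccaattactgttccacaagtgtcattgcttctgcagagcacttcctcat
Gp5: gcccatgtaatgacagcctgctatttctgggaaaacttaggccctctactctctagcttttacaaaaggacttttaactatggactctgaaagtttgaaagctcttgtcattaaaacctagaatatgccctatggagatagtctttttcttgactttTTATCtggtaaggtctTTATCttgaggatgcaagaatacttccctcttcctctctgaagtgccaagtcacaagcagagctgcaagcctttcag
Hba-a2: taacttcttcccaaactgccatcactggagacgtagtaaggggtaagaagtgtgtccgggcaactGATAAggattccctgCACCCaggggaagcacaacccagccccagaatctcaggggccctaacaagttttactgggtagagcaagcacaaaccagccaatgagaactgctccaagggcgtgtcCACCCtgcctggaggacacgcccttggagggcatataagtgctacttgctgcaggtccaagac
Cpa3: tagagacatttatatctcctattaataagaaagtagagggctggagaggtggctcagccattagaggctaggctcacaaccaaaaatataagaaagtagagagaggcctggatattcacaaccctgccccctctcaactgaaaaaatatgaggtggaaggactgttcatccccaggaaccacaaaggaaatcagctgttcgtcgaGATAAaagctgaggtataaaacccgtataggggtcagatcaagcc
Ctsg: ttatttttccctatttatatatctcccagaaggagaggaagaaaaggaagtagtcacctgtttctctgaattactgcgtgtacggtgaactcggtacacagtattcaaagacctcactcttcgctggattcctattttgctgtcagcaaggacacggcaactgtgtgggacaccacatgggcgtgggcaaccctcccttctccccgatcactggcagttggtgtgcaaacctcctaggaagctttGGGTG
They lie at chr5:90768268-90768517 (plus strand), chr5:90772185-90772434 (plus strand), chr16:30310782-30311031 (minus strand), chr11:32296242-32296491 (plus strand), chr3:20242182-20242431 (minus strand) and chr14:56102575-56102824 (minus strand).

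Gp5 has 2 GATAA words, Hba-a2 has 1 with 2 CACCC boxes, Cpa3 has 1 GATAA, Ctsg has 1 CACCC, and the windows of Ppbp and Pf4 hold neither word. AGATAA, the longer form that overlaps GATAA, was found in those of Gp5 and Cpa3. Over all 32851 RefSeq promoter windows of this length, 22.6% hold GATAA on either strand, and 14.9% of the 10703 that belong to tested genes. For genes at least 4-fold higher in MPP2 colonies the share was 63 of 219 windows (28.8%). For those at least 2-fold lower it was 22 of 88 (25.00%). Among tested megakaryocyte genes 9 of 20 windows held the word, and among mast cell genes 12 of 29. A gene with several starts gives several windows. The 219 windows came from 176 genes, the 88 from 63, the 20 from 20 and the 29 from 15. CACCC was common everywhere, in 52.01% of all windows and 56.99% of those of tested genes. These are matches of letters, not binding sites.

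**Figure D2:**
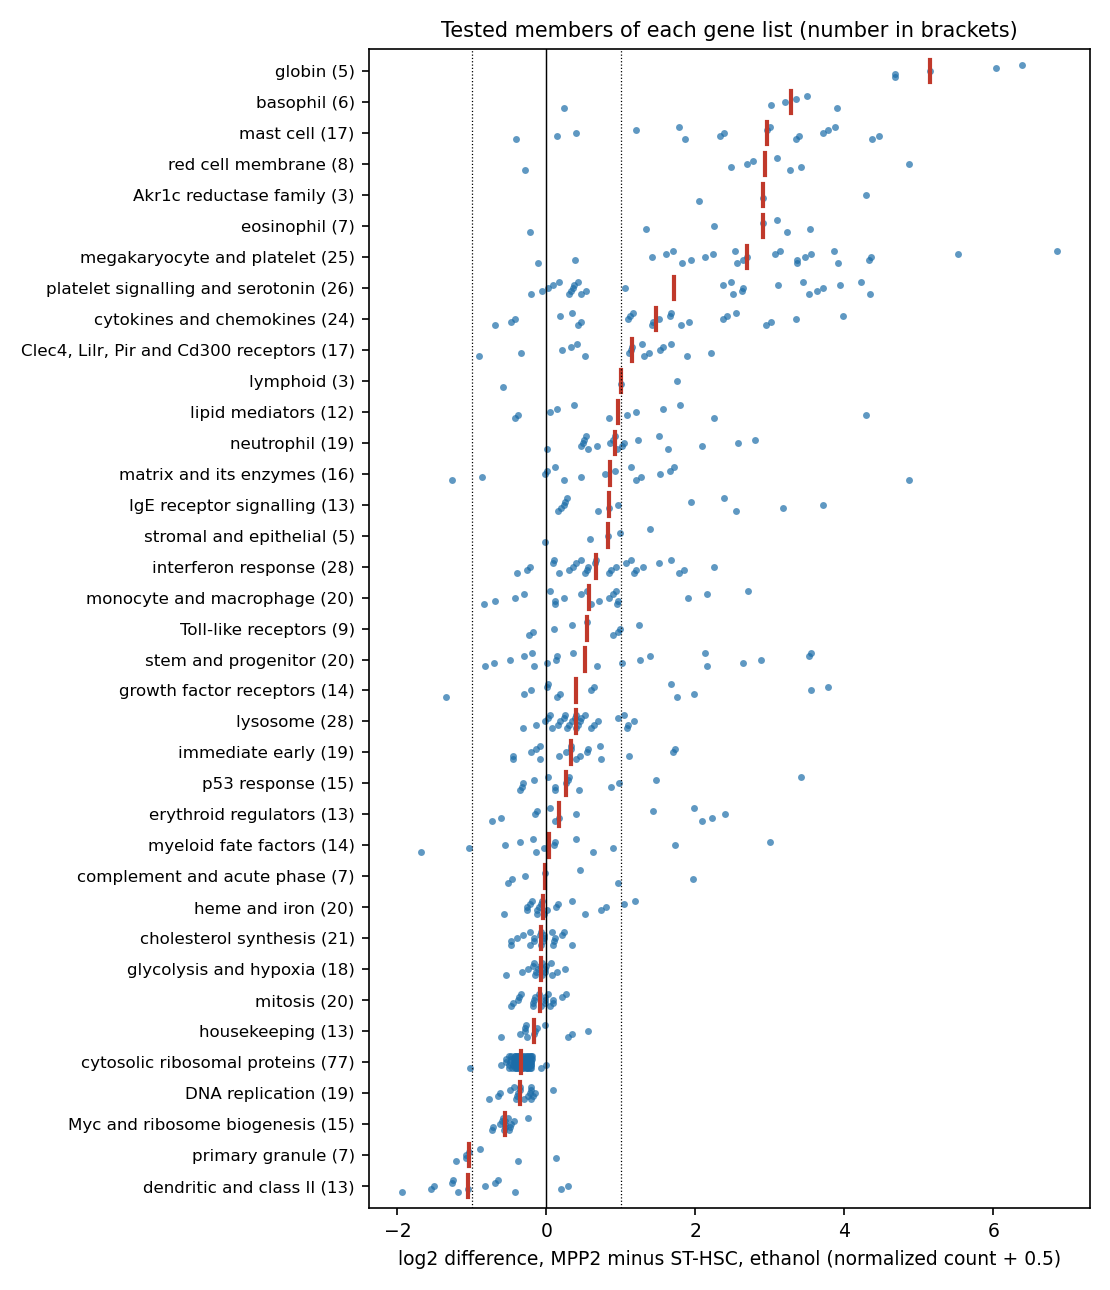
Log2 difference of each tested list member (blue points, spread vertically only to show them) between MPP2 and ST-HSC ethanol libraries, with the list median as a red bar, lists ordered by median and dotted lines at 2-fold. Globin, basophil, mast cell, red cell membrane, eosinophil and megakaryocyte genes lie at the right, primary granule and class II genes at the left.

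Neutrophil genes split by granule. The primary granule proteins, made by promyelocytes, were lower in MPP2 colonies, with 4 of 7 at least 2-fold lower and 0 higher. Mpo, myeloperoxidase, at chromosome 11, 87793581 to 87804413, had 4549 normalized counts in ST-HSC and 1971 in MPP2 colonies (ratio 0.433, 0.427 to 0.439). The serine proteases Elane (1673 and 794), Prtn3 (1798 and 876) and Ctsg (912 and 432) were lower to a like degree. Ms4a3, a marker of granulocyte and monocyte progenitors, stood at -0.89, and Serpinb1a, an inhibitor of these proteases, at 0.13.

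Genes of later neutrophil stages lay on the other side, all 19 tested above 0 and 8 at least 2-fold higher (median 0.92). Among all 10993 tested genes 5032 were above 0. The secondary granule genes Ltf (1856 and 4355 normalized counts) and Ngp (5839 and 12044) were just past 2-fold, and Camp (0.68) and Lcn2 (0.90) short of it. Markers of mature cells were furthest apart: Mmp9, a gelatinase of the tertiary granules, had 2.92 and 23.3, the formyl peptide receptor Fpr1 5.22 and 33.6, and the chemokine receptor Cxcr2 8.48 and 37.9. The G-CSF receptor gene Csf3r, expressed from early to late stages, was level (83.3 and 83.5). S100a8 and S100a9, the calprotectin subunits, stood at 0.46 and 0.53.

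Monocyte and macrophage genes leaned upward by a median of 0.58, with 16 of 20 above 0. At least 2-fold higher were 3, against 6.27% of all tested genes, and 0 were at least 2-fold lower. Past 2-fold were Gpnmb, a glycoprotein of lysosome-rich macrophages (64.7 and 243 normalized counts), Ctsk, a collagen-degrading protease (1.18 and 10.5), and the scavenger receptor Cd36 (0.765 and 5.12), which platelets and red cell precursors carry as well. Lyz2, the lysozyme gene, had 1113 and 1692, and Cd14, the lipopolysaccharide co-receptor, 50.3 and 98.3, short of 2-fold. Other members were nearer to level, among them Csf1r, the M-CSF receptor (66.97 and 54.2), Adgre1, the F4/80 antigen (76.1 and 82.2), and Ly6c2 (868 and 896). Ccr2, the receptor of inflammatory monocytes, stood at -0.70. Lysosome genes, listed after the values were seen, had a median of 0.39. Past 2-fold were 4 of 28, against the same 6.27%, led by Psap (819.5 and 1845), the precursor of sphingolipid activators.

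Genes of class II antigen presentation were the other group lower in MPP2 colonies, with 7 of 13 dendritic and class II genes at least 2-fold lower and 0 higher (median -1.05). Ciita, the master activator of class II genes, had 4.73 and 0.866 normalized counts (ratio 0.183, 0.0902 to 0.341). Its targets H2-Ab1 (33.4 and 11.4), H2-Eb1 (17.8 and 5.77), H2-Aa (29.9 and 12.1) and Cd74, the invariant chain (118 and 49.5), were all lower. The costimulator gene Cd86 had 4.87 and 2.09. Itgax, the CD11c integrin shared by dendritic cells and macrophages, did not follow (15.99 and 18.5).

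Irf8, a transcription factor that monocytes and dendritic cells need, at chromosome 8, 120736358 to 120756694, had 25.7 normalized counts in ST-HSC and 7.65 in MPP2 colonies (ratio 0.297, 0.237 to 0.370). Gfi1, a repressor that favours neutrophils over monocytes, was lower too (153 and 74.2). Of 14 myeloid fate factors, 2 were at least 2-fold higher (Gata2 and Egr2) and 2 at least 2-fold lower (Irf8 and Gfi1). Over all tested genes the shares were 6.27% and 0.846%. The general myeloid factors were within 2-fold, with Spi1, which encodes PU.1, at 319.9 and 312, Cebpa at 209.7 and 143, and Cebpe at 158 and 172.

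**Figure D3:**
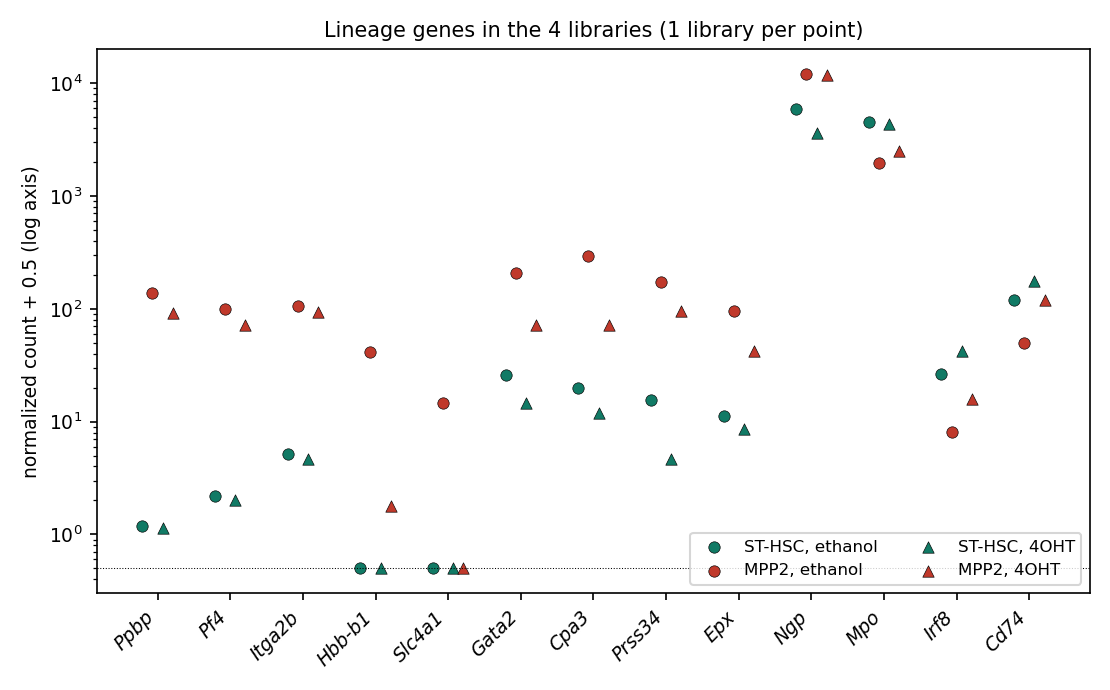
Normalized counts plus 0.5 (log axis) of lineage genes in each library; circles are ethanol and triangles 4OHT cultures, green ST-HSC and red MPP2, 1 library per point, with the dotted line at 0 reads. Platelet, mast cell and eosinophil genes keep their order in both pairs, whereas Hbb-b1 and Slc4a1 are high in the MPP2 ethanol library alone.

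Secreted cytokines and chemokines formed another group higher in MPP2 colonies. At least 2-fold higher were 17 of 24, against 6.27% of all tested genes, with 0 lower and a median of 1.47. Of the 22 that averaged at least 1 in the ST-HSC libraries, 15 were past 2-fold. Il6 had 3.13 normalized counts in ST-HSC and 56.9 in MPP2 colonies (ratio 18.2, 13.5 to 25.1), and Lif, a cytokine of the same family, 5.63 and 46.6. Il1rn, the natural antagonist of IL-1, had 44.1 and 259, and Il1a 5.15 and 29.9. The chemokine Ccl6 was abundant on both sides, at 426 and 2211, and Ccl3 stood at 211 and 471. Tnf (0.43), Tgfb1 (0.18) and the class II-linked chemokines Ccl17 (-0.43) and Ccl22 (-0.68) did not reach 2-fold in either direction. Mast cells and basophils are known sources of several of these cytokines, and their markers were higher in the same library; their part in this difference was not tested.

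Of 19 immediate early genes 3 were at least 2-fold higher, against 6.27% of all tested genes. All were of the EGR family: Egr1 (73.3 and 158 normalized counts), Egr2 (3.89 and 14.00) and Egr3 (12.9 and 43.2). Fos (-0.14), Jun (-0.09) and Dusp1 (-0.45) were within 2-fold, and the list median was 0.33. Toll-like receptor genes leaned upward by a median of 0.55, with 7 of 9 above 0 and 1 past 2-fold (Ly96, the partner of Tlr4, at 0.348 and 1.52). Over all 10993 tested genes 5032 were above 0 and 6.27% at least 2-fold higher. Ly96 passed the filter only through the MPP2 libraries, and none of the other 8 reached 2-fold. Paired and lectin receptors of the Clec4, Lilr, Pir and Cd300 families, grouped after the values were seen, had 11 of 17 at least 2-fold higher. Lilrb4a (182 and 524) and Clec4d, a receptor for fungal and mycobacterial lipids (19.6 and 63.6), were among them, though Lilrb4a shares 55.7% of its 31-base words with relatives.

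Stem and progenitor genes were mixed. At least 2-fold higher in MPP2 colonies were 9 of 20, none was at least 2-fold lower, and the median was 0.52. Of these 20 members 4 passed the filter only through the MPP2 libraries, and of the other 16 genes 5 were past 2-fold. Slamf1, whose protein CD150 is by the usual sorting scheme present on MPP2 cells and absent from ST-HSCs, had 0 reads in ST-HSC and 44 in MPP2 colonies. Cd48, the other marker gained by MPP2 cells, had 8.55 and 21.1 normalized counts. Flt3, absent from both at sorting, was under the filter with 6 reads and 1 read. Of the other sorting markers Kit is given above, Ly6a had 27.8 and 24.7, and Cd34 11.96 and 24.7. Among stem cell factors Mycn (0.556 and 11.6) and Meis1 (1.46 and 8.08) were higher, while Hoxa9 (13 and 5 reads) and Hlf (-0.19) were not. Angpt1, a growth factor that megakaryocytes also make, had 2.23 and 16.5.

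Receptors for the 4 cytokines of the medium were present in both cultures. The IL-3 and GM-CSF receptor chains had 694 and 1053 normalized counts for the shared Csf2rb, 142 and 456 for the IL-3-specific Csf2rb2, and 80.9 and 92.4 for Csf2ra. Csf2rb and Csf2rb2 share 19.6% and 30.1% of their words with other genes, mostly each other. Il6ra was level at 12.7 and 12.99, but Il6st, the signalling chain gp130, was lower in MPP2 colonies at 30.8 and 11.8 (ratio 0.384, 0.319 to 0.461). Of the 14 growth factor receptor genes tested, 5 were at least 2-fold higher and 1 lower, the former including Epor, the erythropoietin receptor (0.139 and 2.02). Of the 12 that averaged at least 1 in the ST-HSC libraries, 3 were at least 2-fold higher. Lymphoid genes were scarce, with 3 of 18 passing the filter. Il7r, the IL-7 receptor, had 6.54 and 23.3, and Cd79a and Vpreb1 of the B lineage had 1 read or fewer in both ethanol libraries.

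Growth genes leaned the other way, by small amounts. All 15 tested genes of MYC and ribosome biogenesis were below 0 in MPP2 colonies, against 5960 of all 10993 tested genes. Their median was -0.56 against -0.04 for all genes, and none reached 2-fold. Myc itself had 168 and 111 normalized counts, Nop56, a snoRNP core protein, 167 and 100.2, and Ncl, nucleolin, 638 and 474. All 77 tested cytosolic ribosomal protein genes, grouped after the values were seen, were below 0 as well (median -0.34, sum 46038 and 36416). Of these 1 was at least 2-fold lower, Rpl26, at 62.9 and 30.7 in ethanol and 59.8 and 23.3 under 4OHT. Many ribosomal protein genes have processed copies that share reads. DNA replication genes had a median of -0.36, with 18 of 19 below 0, among them the helicase subunit Mcm5 (456 and 338) and the licensing factor Cdc6 (84.9 and 54.98). Mitosis genes were near level, with a median of -0.08 and Mki67, a marker of cycling cells, at 593 and 629.

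Metabolic and housekeeping genes stood close to level. No member of the cholesterol synthesis (median -0.07), glycolysis and hypoxia (-0.07) or housekeeping (-0.17) lists reached 2-fold in either direction. Gapdh had 4739.9 and 4272 normalized counts, Hmgcs1, an early enzyme of cholesterol synthesis, 309 and 295, and Actb 12379 and 15712. Markers of stromal and epithelial cells were near absent, with 5 of 17 past the filter, Col1a1 at 3.48 and 6.57, and the endothelial gene Cdh5 at 0 reads and 1 read. Pecam1, the adhesion molecule CD31 that platelets and leukocytes also carry, had 80.6 and 159.9.

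Interferon-response genes were low in both ethanol cultures but higher in MPP2 colonies for 10 of 28 members at 2-fold. The share over all tested genes was 6.27%, and the list median was 0.66. Irf7, a transcription factor of the response, had 3.69 and 13.9 normalized counts (ratio 3.76, 2.76 to 5.20), and Oas3, an antiviral oligoadenylate synthetase, 8.28 and 19.4. The RNA sensor gene Ddx58 (0.52) was within 2-fold. Of 15 p53 targets 2 were at least 2-fold higher, against 6.27% of all tested genes. They were Perp, a membrane protein (5.08 and 58.9), and the kinase gene Plk2 (7.65 and 22.1). Cdkn1a, the gene of the cycle inhibitor p21, was level at 89.98 and 97.8.

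Among complement and acute phase genes 1 of 7 was at least 2-fold higher, against 6.27% of all tested genes. It was the complement factor gene Cfb (1.18 and 6.06 normalized counts).

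Matrix genes held some of the widest gaps. Timp3, an inhibitor of matrix metalloproteinases, had 0.417 and 26.2 normalized counts (ratio 62.8, 28.6 to 172), its relative Timp2 14.4 and 48.2, and Tgm2, a protein-crosslinking enzyme, 34.6 and 111. Thbs1, thrombospondin 1, was abundant on both sides (1238 and 1453). At least 2-fold higher were 7 of the 16 tested, against 6.27% of all tested genes. At least 2-fold lower was 1, against 0.846%, the basement membrane gene Nid2 (5.22 and 1.88). Of the 14 that averaged at least 1 in the ST-HSC libraries, 5 were at least 2-fold higher. Outside the lists, Slc14a1, the urea transporter of red cells, had 2 and 293 reads, and Col18a1, the collagen that gives rise to endostatin, 0.695 and 27.3 normalized counts.

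Genes at least 2-fold higher in ST-HSC colonies were fewer and the gaps smaller. Vcan, the proteoglycan versican that monocytes express, had 211 normalized counts in ST-HSC and 40.2 in MPP2 colonies (ratio 0.190, 0.174 to 0.208). Tifab, an inhibitor of TRAF6 signalling, had 54.4 and 7.94 (ratio 0.146, 0.118 to 0.178). Both genes were still read in MPP2 colonies, at lower levels. The sphingosine phosphate receptor S1pr3 had 10.2 and 2.89, Flt1, a VEGF receptor, 19.5 and 6.93, Dmkn, dermokine, 47.5 and 12.3, and the integrin gene Itga1 22.6 and 8.37. Gvin1, an interferon-induced GTPase, had 76.01 and 18.5 but shares 99.7% of its words with other genes, so its value is uncertain. The imprinted neighbours Dlk1 (25 and 7 reads) and Rian (28 and 5), picked out after their values were seen, were low but more often read in ST-HSC colonies.

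The 4OHT pair, which shares no library with the ethanol pair, gave a second look at the same cell types, again with male ST-HSC and female MPP2 cells and with the 4OHT treatment added. There 594 genes (5.4%) were at least 2-fold higher in MPP2 colonies and 179 (1.63%) at least 2-fold lower. Of the genes higher in ethanol, 385 were higher in both, 55.9% of the ethanol list and 64.8% of the 4OHT list. Of the lower genes 35 were shared, 37.6% and 19.6%. The genes higher in ethanol had a median of 1.59 there and 1.11 under 4OHT, with 93.9% still above 0, against 48.1% of all genes. Among these genes, 193 had a mean under 1 in the ST-HSC libraries and entered through the MPP2 libraries. Their overlap between the pairs is thus partly set by the filter. Only 6 genes passed 2-fold in opposite directions.

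Lineages differed in how alike the pairs were. Over all 10993 tested genes, 385 were at least 2-fold higher in both pairs and 35 at least 2-fold lower in both. Megakaryocyte genes had 21 of 25 members past 2-fold in both pairs, with medians of 2.69 and 2.73. Of these 25 members 11 passed the filter only through the MPP2 libraries. Ppbp had 0.647 normalized counts in ST-HSC and 90.7 in MPP2 colonies under 4OHT. Neutrophil genes had medians of 0.92 and 1.13, with 8 past 2-fold in both. Mast cell genes had 12 of 17 in both, 4 of the 17 having passed the filter only through the MPP2 libraries. Their medians were 2.96 and 1.65, and Cpa3 stood at 11.5 and 70.9 under 4OHT. The globin gap was far smaller there, with Hbb-b1 at 0 and 16 reads, and Slc4a1 had 0 reads in both. Class II genes had medians of -1.05 and -0.73, and primary granule genes -1.04 and -0.70. At least 2-fold lower in both pairs were 3 of 13 dendritic and class II genes and 1 of 7 primary granule genes. In ethanol these counts were 7 and 4.

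Many single genes of the main lineages showed the same order under 4OHT, and some did not. The normalized counts in ST-HSC and MPP2 colonies there were 1.51 and 71.3 for Pf4, 4.17 and 94.03 for Itga2b, and 18.2 and 154 for Vwf. For the mast cell and basophil genes they were 27.6 and 136 for Hdc, 14.2 and 71.2 for Gata2, and 21.6 and 123 for Mcpt8. Each of these genes was higher in both MPP2 libraries than in both ST-HSC libraries. The neutrophil genes Ltf (1432 and 5521) and Ngp (3581 and 11717) were likewise higher in the MPP2 library. On the lower side Mpo had 4357 and 2484, Irf8 42.1 and 15.3, Vcan 255 and 86.9, and Tifab 60.7 and 18.7. These 4 genes were lower in both MPP2 libraries than in both ST-HSC libraries. Other genes lower in ethanol were near level under 4OHT, with Flt1 at 16.96 and 17.7, Gvin1 at 15.7 and 12.3, Gfi1 at 129 and 114, and Nid2 at 8.12 and 10.1. Hba-a1 had 2 and 31 reads, against 3 and 637 in ethanol.

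Cytokine and interferon genes also had unlike medians in the pairs. Of the 17 cytokine genes higher in ethanol, 7 were higher in both pairs. Over all tested genes this held for 385 of 689, or 55.9%. The cytokine list median was 1.47 in ethanol and 0.27 under 4OHT. Il6 had 1.65 and 7.22 normalized counts under 4OHT. The interferon list had a median of 0.66 in ethanol and -0.38 under 4OHT, where 3 members were at least 2-fold lower in MPP2 colonies and 0 higher. Of the 28 members 21 were below 0 under 4OHT. Whether these list differences changed between the pairs was not tested, since each pair is a single pair of cultures.

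**Figure D4:**
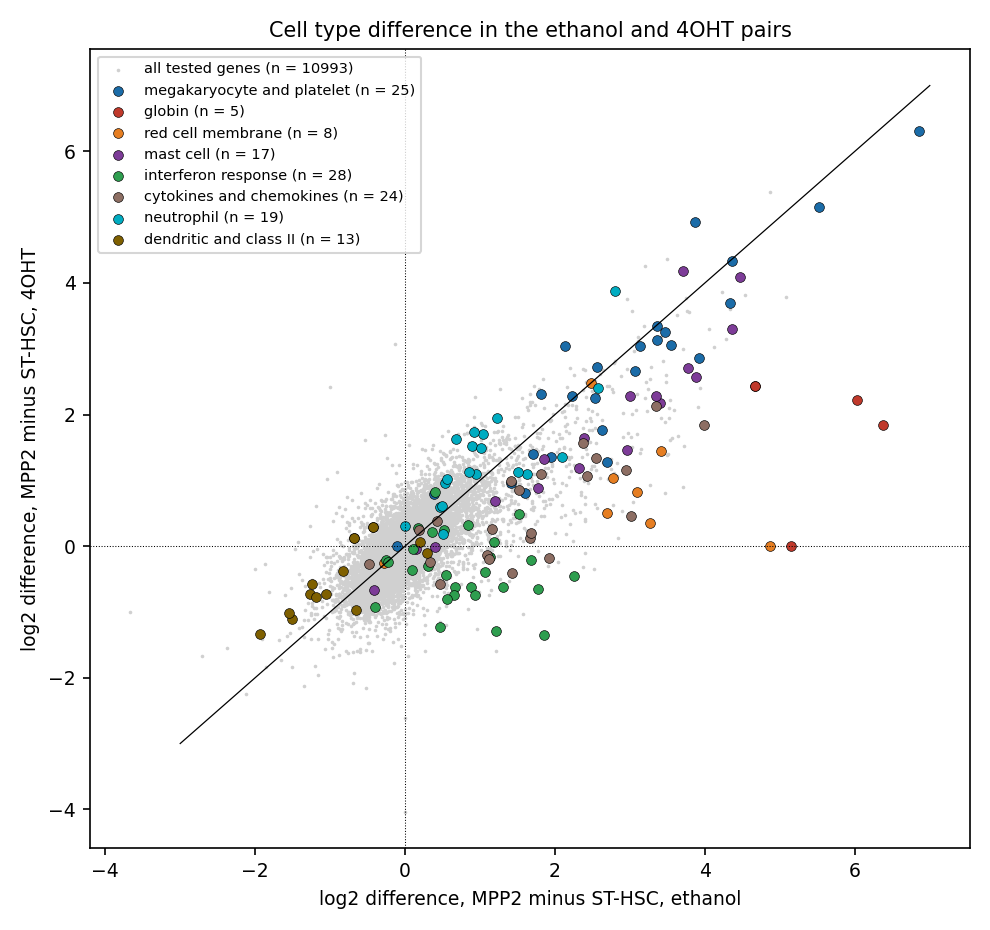
Log2 difference between MPP2 and ST-HSC libraries in ethanol (horizontal) and under 4OHT (vertical) for all tested genes (grey) and list members (coloured); the solid line marks equal differences. Megakaryocyte genes lie near the line, most mast cell genes somewhat and globin and red cell membrane genes far to its right, and most interferon genes below 0 on the vertical axis.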

How the data were processed

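Total RNA of cultured colonies was sequenced after rRNA depletion with a directional kit, per the labels, with 1 library for each of 4 groups. The submitters' processing notes name Trimmomatic 0.36, Bowtie2, RSEM, edgeR and the build mm10, with no roles. The authors deposited 1 normalized signal per gene and library. Dividing a column by its smallest value gave whole reads for 57292 of 57292 values (100% within 1e-06), 14317891, 13647704, 13705519 and 12907412 per library; 1 read was worth 0.0722 in the MPP2 ethanol library. Differences are log2(value + 0.5), MPP2 minus ST-HSC, for genes with a mean of at least 1, which understates low genes, and no p-value was computed for them. Genes were placed by symbol with GENCODE M21 (GRCm38, the same assembly as mm10; 10601 genes) or RefSeq (392); 350 on X or Y and 27 unplaced, including the rRNA gene Rn45s (4.82% of reads in the MPP2 and 6.75% in the ST-HSC ethanol library), were left out. Folds of genes with 0 reads in a library set the 0 at 3 reads. Whether the counts of related genes were split between copies is not given in the sources used here; words shared between transcripts of different genes mark such genes.

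Members and lists (33, and 6 added later) were chosen with earlier results of these data known. Genes were named from at least 10 normalized counts by the 15 highest and lowest differences, the 6 highest and lowest from 200, and per list the 3 largest differences and 2 highest levels; other list members named were chosen as examples after their values were seen. Alternatives changed the added constant, the filter, the scaling (DESeq2 1.42.0 size factors, column totals, the median), the sex chromosomes and GC content, and ran edgeR 4.0.16 (R 4.3.3) on the recovered reads. Scripts, tested on simulated data, ran in Python 3.11.15 with scipy 1.17.1, pandas 2.3.3, matplotlib 3.10.9 and numpy 2.4.6.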

Additional observations from a re-analysis of the deposited data

Results flagged for a closer look

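A few genes passed 2-fold in opposite directions in the ethanol and the 4OHT pair; with 1 library a side the difference between the pairs was not tested. The log2 differences in ethanol and under 4OHT were 1.21 and -1.29 for Ifi204, 1.21 and -1.59 for Oas1g, 1.85 and -1.35 for Oasl2, and 1.57 and -1.03 for Ptgs2, which encodes cyclooxygenase 2. Lower in ethanol and higher under 4OHT were the histone gene Hist2h2aa2 (-1.01 and 2.41) and Vill, a villin relative (-1.04 and 1.01).

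Signal also stood outside the autosomal comparison. Xist reached 872 normalized counts in the MPP2 ethanol library and 0 in the ST-HSC one, and Ddx3y 47.4 in the ST-HSC ethanol library and 0 in the MPP2 one.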

How the results depend on the processing

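No paired analysis was possible because each group has 1 library and the groups share fewer than 2 replicate numbers; for the same reason no replicate could be left out. Requiring a mean of at least 5 left 389 higher and 56 lower genes, 221 higher and 18 lower in both pairs, and 2 globin, 1 red cell membrane and 3 basophil genes at least 2-fold higher. Without a filter, 12 red cell membrane genes were. An added constant of 0.1 gave 141 lower genes and 1 lower monocyte and macrophage gene. Removing the trend with GC content, an alternative chosen after seeing the data, left 3 globin genes, since genes with no GC value drop out. Also chosen afterwards, an edgeR quasi-likelihood test of cell type over all 4 libraries called 1789 genes higher and 1715 lower at any fold (Benjamini-Hochberg adjusted p under 0.05); it counts the treatments as replicates of a cell type, has no fold limit and shares the sex difference. The other 159 values of the main counts stayed within 1.5-fold of those reported. Of the 174 genes named by rule 98 were past 2-fold, and none of these changed sign in any setting that kept it. Other genes, named as examples, were not checked in this way. Depth limits genes at 0 reads: 3 reads correspond to 0.209 normalized counts in the ST-HSC and 0.216 in the MPP2 ethanol library.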
